A study of Arabidopsis thaliana with 38 samples.

Results

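Arabinogalactan peptides are the smallest arabinogalactan proteins of the plant cell surface. Their precursors carry a signal for secretion and a signal for a glycosylphosphatidylinositol (GPI) anchor, and the short mature peptide is rich in hydroxyproline, bears branched arabinogalactan sugar chains and sits on the outer face of the plasma membrane. In Arabidopsis thaliana the AGP14 and AGP21 peptides are known for their part in root hair growth and root hair cell fate. The genes described here are the 8 named by their locus, of the 27416 in the deposited counts: AGP12 (AT3G13520), AGP13 (AT4G26320), AGP14 (AT5G56540), AGP15 (AT5G11740), AGP16 (AT2G46330), AGP20 (AT3G61640), AGP21 (AT1G55330) and AGP22 (AT5G53250). The set was chosen by the higher counts of AGP12 and AGP21 in H3.1S28A than in H3.1. Values of these genes in the H3.1 pair are therefore a description, with no test, while the H3.3 pair was not used in the choice and was tested.

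Poly(A) RNA was sequenced from 4 genotypes, which the labels call H3.1 and H3.1S28A (the H3.1 pair) and H3.3 and H3.3S28A (the H3.3 pair), with 2 libraries each. Each S28A genotype was compared with the genotype that carries the unmutated form of the same histone, to ask what the exchange of serine 28 for alanine in the replication-coupled H3.1 or in the replication-independent H3.3 does to expression. Serine 28 neighbours lysine 27, the residue methylated by Polycomb repressive complexes. How the lines were built, and whether endogenous H3 genes remain in them, is not given in the labels for these libraries. The source is labelled as 2-week-old seedlings of Arabidopsis, whereas the extraction text speaks of closed buds. Growth is described for long days of 16 h light and short days of 8 h light without saying which applied here. The labels do not say whether both libraries of a genotype came from separate batches of plants, so p-values measure only the spread between these samples.

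Total gene counts ran from 12865999 to 24449528 per library, and the floor for a gene without counts, 3 counts over the library total, was 0.123 to 0.233 CPM (counts scaled to library size), which covers counting error only. Nuclear genes of photosynthesis, 17 in the list used as leaf markers, summed to 116105 and 125584 CPM in the H3.1 libraries and 133610 and 134164 CPM in H3.1S28A. Their sums were 134549 and 140893 CPM in H3.3, and 131708 and 144662 CPM in H3.3S28A. Of the 17, 6 rose in H3.1S28A, beside 8.23% of all genes tested. In H3.3S28A 4 rose and 5 fell, beside 28.8% and 29.7% of all genes tested. With a smooth trend of fold change on gene span removed, 2 were called higher and 0 lower in H3.1S28A. In H3.3S28A 1 was then called higher and 13 lower. The summed level of 8 floral organ identity genes was 10.5 to 10.6 CPM in H3.1, 19.3 to 77.9 CPM in H3.1S28A, 9.52 to 10.5 CPM in H3.3 and 195 to 208 CPM in H3.3S28A. Of 7 root hair genes, EXPA7, RHD6, RSL4 and LRX1 had no count in any of the 8 libraries, and the highest of the other 3 reached 0.394 CPM (PRP3). In RNA from tissue of mixed cell types, fewer cells of a type and less RNA per cell cannot be told apart. Chloroplast-encoded genes took 0.858% of the counts in H3.3S28A replicate 2 and 0.052% to 0.143% in the other libraries. The H3.1S28A libraries differed from each other in floral genes, with SEP3 at 43.1 CPM in replicate 1 and 5.13 CPM in replicate 2.

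The 8 genes spanned from 427 bases (AGP21) to 1101 bases (AGP16) in the RefSeq annotation and lie on chromosomes 1 to 5. Together they reached 414 and 428 CPM in H3.1, 805 and 806 CPM in H3.1S28A, 582 and 556 CPM in H3.3 and 1155 and 1226 CPM in H3.3S28A. Both S28A genotypes thus lay above their control with no overlap. In the H3.1 pair this is a description only, because the sum holds AGP12 and AGP21, whose rise there chose the set. The H3.3 controls lay above the H3.1 controls, a difference across separately deposited counts that was not tested. AGP15 counts made up 53.6% to 56.0% of the sum in H3.1, 50.0% to 50.3% in H3.1S28A, 50.7% to 51.0% in H3.3 and 60.9% to 66.9% in H3.3S28A.

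Levels were compared between genes after division by the gene span in kilobases. In H3.1 the order of mean CPM per kilobase was AGP15 (223), AGP16 (95.2), AGP21 (69.1), AGP12 (42.8), AGP20 (20.7) and AGP14 (1.48). In H3.1S28A the mean level was 391 CPM per kilobase for AGP15, 289 for AGP21, 139 for AGP12, 132 for AGP16, 18.6 for AGP20 and 2.76 for AGP14. Per kilobase of span, AGP21 and AGP12 therefore stood above AGP16 in H3.1S28A and below it in H3.1. Before that division AGP16 stood above both in mean CPM in every genotype. In H3.1S28A it was at 145 CPM, against 123 for AGP21 and 113 for AGP12. H3.3 and H3.3S28A had the same order of these 6 genes as H3.1S28A, with AGP21 at 146 and 286, AGP12 at 107 and 168, and AGP16 at 100.4 and 130 CPM per kilobase. Neighbours among these 6 genes did not overlap between libraries in any genotype. The gap was narrow in H3.3, where the lowest AGP12 library was at 105.9 and the highest AGP16 library at 105.5 CPM per kilobase. AGP13 and AGP22 were at the bottom in every genotype, and their libraries overlapped in H3.1 and in H3.3S28A.

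**Figure D1:**
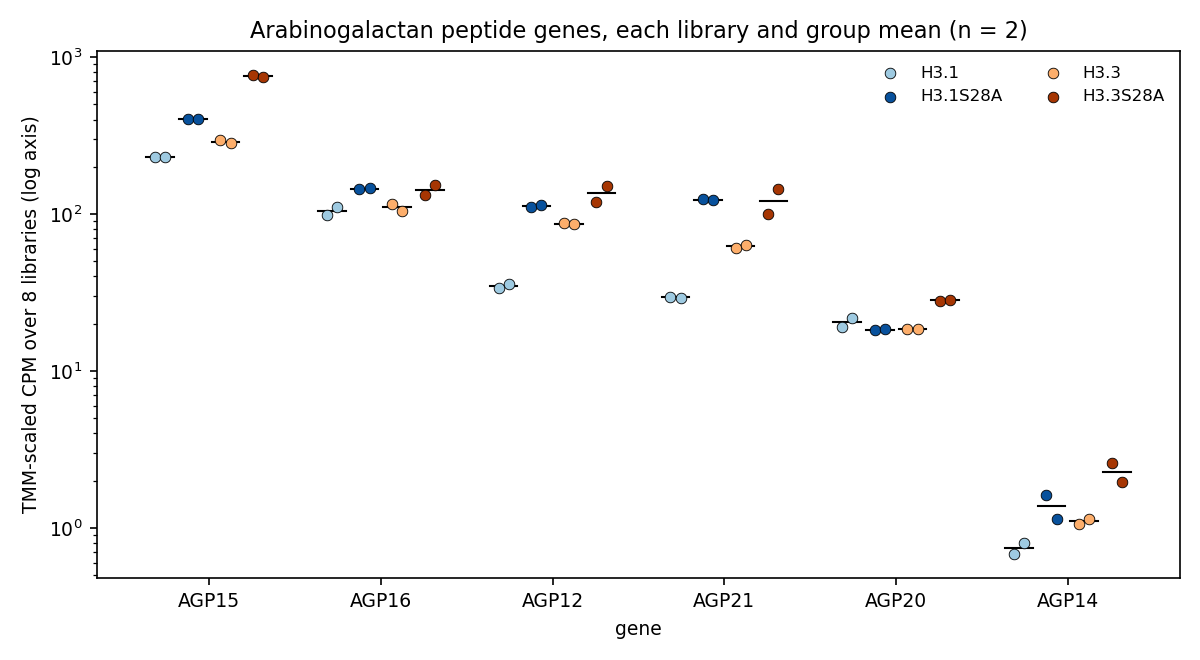
TMM-scaled CPM (log axis) of the 6 more abundant arabinogalactan peptide genes; each point is a library, each bar the mean of 2 libraries, and colours mark the 4 genotypes. AGP12 and AGP21 are lowest in H3.1, where AGP12 lies at 33.6 and 35.7 CPM and AGP21 at 29.7 and 29.3 CPM, and AGP15 is highest in H3.3S28A.

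AGP12 and AGP21, the genes that prompted the choice, were at 1 level in both H3.1S28A libraries and at another in both H3.1 libraries. AGP12 was at 33.6 and 35.7 CPM in H3.1, 111 and 115 CPM in H3.1S28A, 88.2 and 85.8 CPM in H3.3, and 119.6 and 152 CPM in H3.3S28A. Its lowest libraries were those of H3.1, and the groups of neither pair overlapped. In H3.1S28A its level was 3.26-fold that of H3.1 (log2 fold change 1.71, SE 0.11).

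AGP21, whose promoter is bound by a brassinosteroid-responsive factor in Arabidopsis roots, was at 29.7 and 29.3 CPM in H3.1, 125 and 122 CPM in H3.1S28A, 61.1 and 63.2 CPM in H3.3, and 100.1 and 144 CPM in H3.3S28A. The order of the genotypes was not that of AGP12: the H3.1S28A libraries fell between those of H3.3S28A, and both lay above H3.3. Its level in H3.1S28A was 4.18-fold that of H3.1 (log2 fold change 2.06, SE 0.11). The annotated span of AGP21 overlaps AT1G55335, which was not analysed here, and whether reads were counted by strand is not given in the sources used here, so the AGP21 counts may hold reads of both genes.

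The ratio of AGP12 to AGP21 counts was 1.13 and 1.22 for H3.1, 0.894 and 0.938 for H3.1S28A, 1.44 and 1.36 for H3.3, and 1.19 and 1.06 for H3.3S28A. This ratio, read across libraries only, was lowest in both H3.1S28A libraries and highest in both H3.3 libraries.

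AGP15 was at 232 and 229 CPM in H3.1, 405 and 403 CPM in H3.1S28A, 297 and 282 CPM in H3.3, and 773 and 746 CPM in H3.3S28A. Replicates lay close together and the 4 genotypes did not overlap. In H3.1S28A its level was 1.75-fold that of H3.1 (log2 fold change 0.81, SE 0.10).

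AGP16 was at 98.8 and 111 CPM in H3.1, 144 and 146 CPM in H3.1S28A, 116 and 105 CPM in H3.3, and 132 and 153 CPM in H3.3S28A. The control genotypes overlapped each other, and each S28A genotype lay above its own control; the H3.1 pair differed by a log2 fold change of 0.47 (SE 0.10). Its annotated span overlaps AT2G46320, which was at 12.7 to 17.3 CPM in the 8 libraries and whose log2 fold change was -0.09 in the H3.1 pair (adjusted p = 0.756, edgeR's quasi-likelihood test) and -0.01 in the H3.3 pair (adjusted p = 0.954). Without a stated strand setting, reads of these genes cannot be told apart. The ratio of AGP15 to AGP16 counts was 2.35 and 2.07 for H3.1, 2.82 and 2.76 for H3.1S28A, 2.56 and 2.69 for H3.3, and 5.84 and 4.86 for H3.3S28A, so that H3.3S28A lay apart from the other genotypes.

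AGP20 was at 18.97 and 21.7 CPM in H3.1, 18.2 and 18.4 CPM in H3.1S28A, 18.4 and 18.6 CPM in H3.3, and 27.9 and 28.4 CPM in H3.3S28A. It was the tested gene of the set that lay lower in H3.1S28A than in H3.1, by a log2 fold change of -0.15 (SE 0.13), and H3.3S28A stood above the other 3 genotypes. AGP14, a gene known for root hair elongation, was scarce at 0.682 and 0.801 CPM in H3.1, 1.62 and 1.14 CPM in H3.1S28A, 1.06 and 1.14 CPM in H3.3, and 2.59 and 1.97 CPM in H3.3S28A. These levels rest on 15 to 50 counts per library, and the log2 fold change in the H3.1 pair was 0.86 (SE 0.43).

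AGP13 and AGP22 did not pass the filter on low counts and were not tested in either pair. AGP13 had 1 and 2 counts in H3.1, 0 and 1 counts in H3.1S28A, 2 and 2 counts in H3.3, and 2 and 3 counts in H3.3S28A. AGP22 had 2 and 1 counts in H3.1, 7 and 9 counts in H3.1S28A, 1 and 1 counts in H3.3, and 3 and 1 counts in H3.3S28A. The depth-scaled ratio of mutant to control counts of AGP22 was 5.85 in the H3.1 pair, from 16 against 3 counts. It is a description only, as that pair served in choosing the set. In the H3.3 pair the AGP22 ratio was 2.36 (95% exact interval 0.339 to 26.1, counting error only). For AGP13 the ratios were 0.366 in the H3.1 pair, from 1 against 3 counts, and 1.48 in the H3.3 pair (0.318 to 7.45).

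In the H3.1 pair, 5 of the 6 tested genes lay higher in both mutant libraries than in both controls and AGP20 lay lower. Of the 18974 genes tested in that pair, 29.1% were higher and 28.9% lower in this sense, and 13.5% passed an adjusted p of 0.05 in either direction, 8.23% higher and 5.26% lower. Nothing is read from that count, because this pair served in choosing the set.

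In the H3.3 pair all 6 tested genes rose. With a smooth trend of fold change on gene span removed, only AGP15 was still called higher. AGP21 and AGP14 were then not called, and AGP12, AGP16 and AGP20 changed sign, with only AGP16 called lower. As fitted, 28.8% of the 19729 genes tested in that pair rose and 58.4% passed the test in either direction. With replicates that did not overlap, 38.2% were higher and 41.4% lower. AGP15 had the largest fold change of the 6, 2.68-fold (log2 fold change 1.42, SE 0.07, adjusted p = 1.0e-07, edgeR's quasi-likelihood test over all genes). AGP21 rose 2.00-fold (log2 fold change 1.00, SE 0.13, adjusted p = 8.4e-05). AGP12 rose 1.59-fold (log2 fold change 0.67, SE 0.10, adjusted p = 1.7e-04).

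AGP20 rose in H3.3S28A by a log2 fold change of 0.63 (SE 0.11, edgeR adjusted p = 4.9e-04). AGP16 had the smallest rise of the 6, with a log2 fold change of 0.40 (SE 0.08, edgeR adjusted p = 0.0020), and it was no longer called without H3.3 replicate 2 (0.31, adjusted p = 0.0571). AGP14 was near the threshold, with a log2 fold change of 1.09 (SE 0.40, edgeR adjusted p = 0.0354), and its call was lost when H3.3 replicate 1 (adjusted p = 0.135), H3.3 replicate 2 (0.106) or H3.3S28A replicate 1 (0.243) was left out. For AGP21 the log2 fold change was 1.24 without H3.3S28A replicate 1 and 0.72 without replicate 2, which is the library with the higher share of chloroplast counts, and for AGP12 it was 0.49 without replicate 2. With 1 library left out, the lone library of that genotype is assumed to vary like those of the compared genotype. Adjusted p-values of such fits, here and below, rest on that assumption. For AGP21 and AGP12 only the fold changes of these fits are given.

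Short genes rose widely in the H3.3 pair, and all 8 genes are short. Of 1614 tested genes with a span up to that of AGP16, 53.7% rose in H3.3S28A and 4.03% fell, and their median log2 fold change was 0.68, against 0.01 over all genes tested and 0.83 over the 6 tested arabinogalactan peptide genes. Across genes, which are not independent replicates, the log2 fold change fell with span at Spearman's rho = -0.524 in the H3.3 pair and -0.218 in the H3.1 pair. Taken library by library, rho ran from -0.544 to -0.506 in the H3.3 pair and from -0.295 to -0.113 in the H3.1 pair, and between replicates of a genotype from -0.196 to 0.201.

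With a smooth trend on span removed from the counts, 2 of the 6 genes were called in the H3.3 pair, AGP15 higher and AGP16 lower. AGP15 kept a log2 fold change of 0.75 (edgeR adjusted p = 1.2e-05). AGP16 was at -0.24 (adjusted p = 0.0223), AGP12 at -0.14 (0.169), AGP20 at -0.07 (0.615), AGP21 at 0.12 (0.353) and AGP14 at 0.22 (0.679). The smooth trend is poorly held at the short end, where 118 genes of up to 500 bases had a median log2 fold change of 0.36 and the 1144 genes of 501 to 1000 bases one of 0.72. With the median of each span class subtracted instead, an alternative chosen after seeing the data, AGP15 was at 0.93 (adjusted p = 5e-06) and AGP21 at 0.62 (8.8e-04), both called higher. AGP12 was at -0.04 (0.719), AGP16 at -0.09 (0.338), AGP20 at -0.07 (0.609) and AGP14 at 0.39 (0.432) under that alternative. AGP15 was thus the only one of the 6 called higher both ways.

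In the H3.1 pair, whose rise of AGP12 and AGP21 chose the set, their log2 fold changes were 1.47 and 1.76 with the smooth trend removed and 1.44 and 1.75 with the class medians removed. AGP15 was at 0.62 and 0.67, AGP16 at 0.29 and 0.33, AGP14 at 0.57 and 0.60 and AGP20 at -0.35 and -0.42, respectively. Of 1372 tested genes of that span in this pair, 17.6% rose and 3.43% fell, with a median log2 fold change of 0.23. Why fold changes moved with gene span was not tested.

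**Figure D2:**
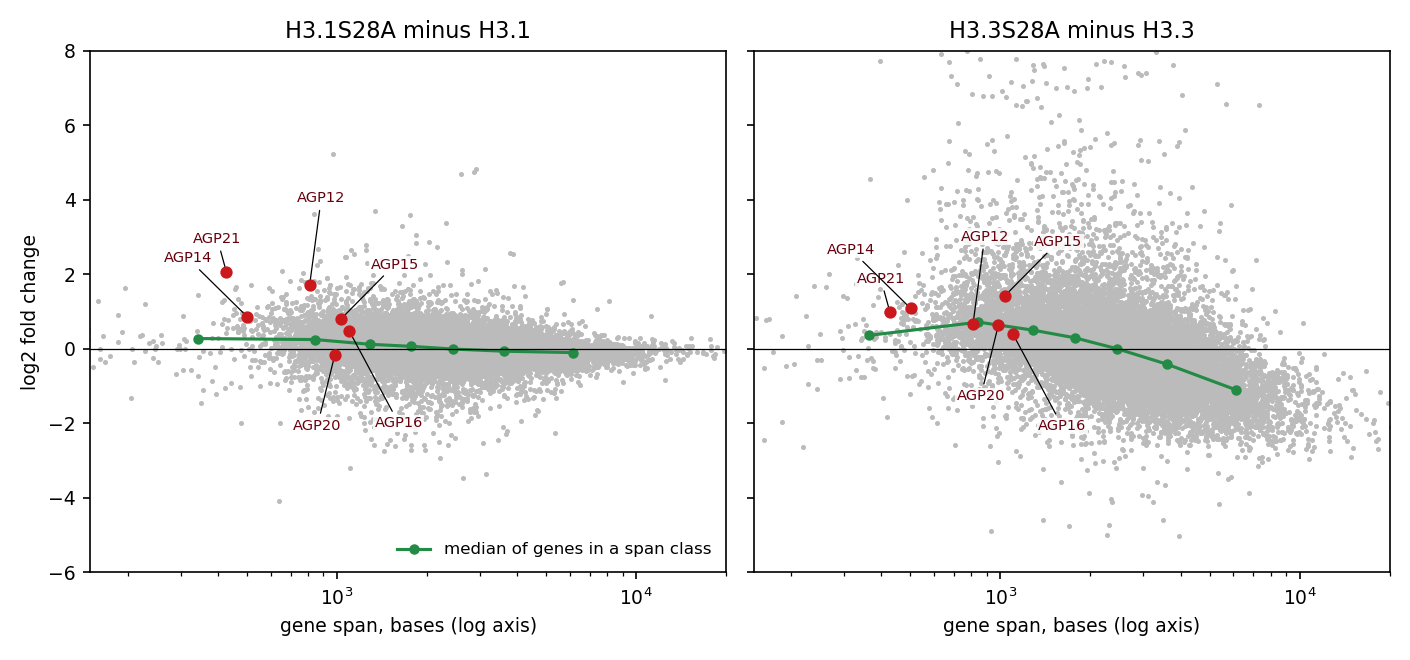
Log2 fold change of each gene (grey) against its span in bases (log axis) in the H3.1 pair (left) and the H3.3 pair (right); red points are the 6 tested arabinogalactan peptide genes, green points the medians of 7 span classes, and 21 and 33 genes lie outside the axes. At left AGP12 (1.71) and AGP21 (2.06) stand above the class medians of 0.25 and 0.28; at right AGP12, AGP16 and AGP20 lie near them and AGP15 (1.42) above.

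**Figure D3:**
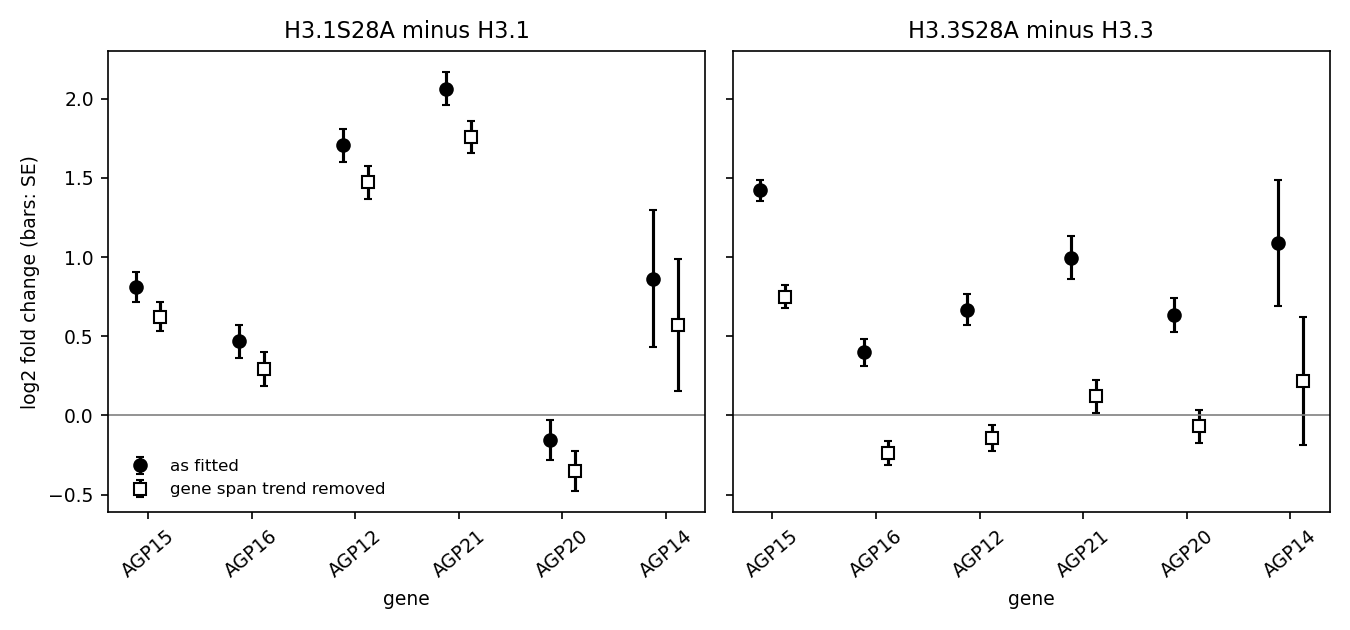
Log2 fold change (bars: SE) of the 6 tested arabinogalactan peptide genes in both pairs, as fitted (filled) and with the smooth span trend removed (open). In the H3.1 pair the open points keep the sign of the filled ones; in the H3.3 pair AGP12, AGP16 and AGP20 move from 0.67, 0.40 and 0.63 to -0.14, -0.24 and -0.07.

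The control genotypes also differed from each other, and these levels come from separate tables of libraries, so they are set side by side with no test. Mean AGP12 in H3.3 was 2.51 times that in H3.1, and mean AGP21 2.11 times. For the others the ratio was 1.26 (AGP15), 1.05 (AGP16), 0.909 (AGP20) and 1.48 (AGP14). AGP12 in H3.1S28A was 1.298 times, and AGP21 1.98 times, the level in H3.3. Between these controls the log2 difference also fell with span, with rho = -0.343 across genes.

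The genes whose pattern over the 8 libraries was most like that of AGP12, by Pearson's r of log2 CPM among 11567 genes with a mean of at least 10 CPM, were AT4G15790 (r = 0.996), AT3G50685 (0.995) and RALFL24 (0.993), which encodes a RALF-like signal peptide. RALFL24 was at 10.6 and 10.4 CPM in H3.1, 25.8 and 26.1 CPM in H3.1S28A, 20.1 and 20.9 CPM in H3.3, and 28.0 and 37.1 CPM in H3.3S28A. For AGP21 they were SPDS2, a spermidine synthase (r = 0.983), AT3G24100 (0.982) and AT3G46320 (0.979). AGP12 and AGP21 correlated at r = 0.968, which placed AGP21 at rank 39 for AGP12 and AGP12 at rank 16 for AGP21. These points share 8 libraries of 4 genotypes and the trend with gene span, so the correlations only describe likeness.

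Of the 4 other arabinogalactan peptide genes, 3 were tested in each pair, of which 1 rose in H3.1S28A and 2 in H3.3S28A. Over all genes tested, 8.23% rose in H3.1S28A and 28.8% in H3.3S28A. Among genes with a span up to that of AGP16, 17.6% and 53.7% rose. AGP24 was at 1.14 and 0.890 CPM in H3.1, 3.03 and 1.36 CPM in H3.1S28A, 6.87 and 5.69 CPM in H3.3, and 16.9 and 23.4 CPM in H3.3S28A. Its rise in H3.3S28A was 3.25-fold (log2 fold change 1.70, SE 0.18, edgeR adjusted p = 1.8e-05), and in the H3.1 pair it did not pass (1.06, adjusted p = 0.127). AGP41 was at 3.09 and 2.40 CPM in H3.1, 5.07 and 5.13 CPM in H3.1S28A, 17.3 and 17.1 CPM in H3.3, and 24.2 and 26.995 CPM in H3.3S28A.

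AGP41 rose in the H3.1 pair (log2 fold change 0.89, edgeR adjusted p = 0.0271) and in the H3.3 pair (0.60, adjusted p = 0.0011). Neither call held with the span trend removed (0.72, adjusted p = 0.0699, and -0.03, adjusted p = 0.811), and the former was also lost without H3.1 replicate 2 (adjusted p = 0.184). AGP40, known from pollen, was not called in the H3.1 pair (1.67, adjusted p = 0.0962) or the H3.3 pair (0.41, adjusted p = 0.377). The former value rests on few counts, 4 and 6 for the controls against 8 and 20 for the mutants. Between the controls, H3.3 stood at 6.20 times H3.1 for AGP24, 6.95 times for AGP40 and 6.26 times for AGP41, set side by side with no test. The AGP40 ratio is uncertain, because its H3.1 level (0.182 and 0.267 CPM) lay close to the floor.

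Classical arabinogalactan proteins have a longer hydroxyproline-rich backbone of the same kind. In the H3.1 pair 14 of 16 were tested, of which 2 rose, 1 fell and 11 were not called, with a median log2 fold change of -0.10. Over all genes tested in that pair, 8.23% rose and 5.26% fell. AGP1 fell from 55.8 and 55.7 CPM in H3.1 to 32.0 and 31.4 CPM in H3.1S28A (log2 fold change -0.81, SE 0.10, edgeR adjusted p = 3.9e-04). AGP17, known for its part in Agrobacterium binding to roots, rose from 35.0 and 39.5 CPM to 63.9 and 61.3 CPM (0.75, SE 0.11, adjusted p = 8.0e-04). AGP7 rose from 7.37 and 10.3 CPM to 16.3 and 14.7 CPM (0.81, adjusted p = 0.0087), a call lost with the span trend removed (0.0571) and without H3.1 replicate 1 (0.0907).

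In the H3.3 pair 8 of 15 tested classical genes were called higher, beside 28.8% of all genes tested and 53.7% of the short ones, and the median log2 fold change was 0.75. With the span trend removed, 3 were called higher and 4 lower. AGP5 stood at 0.101 and 0.155 CPM in H3.3, from 2 and 3 counts, and at 6.47 and 3.94 CPM in H3.3S28A, from 125 and 50 counts. Its fitted log2 fold change was 5.31 (SE 0.50, edgeR adjusted p = 6.7e-06). AGP2 rose from 0.657 and 0.518 CPM to 5.9997 and 5.51 CPM (3.31, SE 0.34, adjusted p = 1.2e-05). AGP4, also known as JAGGER and required to stop attraction of further pollen tubes after fertilization, rose from 4.50 and 4.3995 CPM to 12.2 and 10.9 CPM (1.40, SE 0.19, adjusted p = 7.7e-05). AGP3 rose from 0.354 and 0.311 CPM to 1.29 and 1.18 CPM (1.91, adjusted p = 0.0134), and was not called with the span trend removed (1.15, adjusted p = 0.115), without H3.3 replicate 1 (0.0647) or 2 (0.0807), or without H3.3S28A replicate 1 (0.0902).

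Fasciclin-like arabinogalactan proteins join the same glycosylated stretches to adhesion domains. In the H3.1 pair 3 of 14 tested rose, 2 fell and 9 were not called, beside 8.23% higher and 5.26% lower over all genes tested. FLA9 rose from 23.5 and 33.4 CPM to 56.5 and 62.4 CPM (log2 fold change 1.07, SE 0.14, edgeR adjusted p = 5.2e-04), and FLA13 from 28.7 and 39.7 CPM to 58.3 and 59.2 CPM (0.78, SE 0.14, adjusted p = 0.0028). FLA10 fell from 11.1 and 13.3 CPM to 7.32 and 6.82 CPM (-0.79, adjusted p = 0.0078; 0.0873 without H3.1 replicate 2). FLA18 rose by 0.36 (adjusted p = 0.0474), which was lost when replicate 1 (0.324) or 2 (0.0519) of the controls or replicate 1 (0.098) of the mutants was left out.

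In the H3.3 pair 8 of 16 tested fasciclin-like genes were called higher by edgeR and 6 by DESeq2, beside 28.8% of all genes tested, with a median log2 fold change of 0.36. With the span trend removed, 4 were called higher and 2 lower. FLA13 rose from 26.9 and 26.4 CPM to 44.3 and 45.5 CPM (0.78, SE 0.10, edgeR adjusted p = 5.3e-05), but was not called with the span trend removed (0.21, adjusted p = 0.0783). FLA15 rose by 0.53 (adjusted p = 0.0054; 0.0628 without H3.3 replicate 2). FLA11, a secondary wall gene, rose by 0.72 (adjusted p = 0.0120; 0.102 without H3.3 replicate 2) and lay at -0.03 (adjusted p = 0.902) with the span trend removed. FLA3, known from developing pollen, was at 0.82 (adjusted p = 0.0420), and leaving out any 1 of the 4 libraries gave an adjusted p between 0.0535 and 0.254.

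Other genes build the sugar chains and the anchor of these proteins. In the H3.1 pair, RAY1, an arabinofuranosyltransferase, fell from 9.78 and 7.87 CPM to 3.73 and 5.76 CPM (log2 fold change -0.86, edgeR adjusted p = 0.0208). The RAY1 call was lost without H3.1 replicate 1. The other 18 tested genes of arabinogalactan modification were not called, beside 8.23% higher and 5.26% lower over all genes tested. In the H3.3 pair edgeR called 2 of 19 higher and 7 lower, beside 28.8% higher and 29.7% lower over all genes tested, with a median log2 fold change of -0.17. DESeq2 called 1 higher and 2 lower, and 2 were higher and 3 lower with the span trend removed. FUT4, a fucosyltransferase of arabinogalactan proteins, rose from 0.960 and 0.880 CPM to 3.57 and 4.56 CPM (2.16, SE 0.35, adjusted p = 3.3e-04). AT1G27120 fell from 24.7 and 23.6 CPM to 15.7 and 13.3 CPM (-0.69, SE 0.13, adjusted p = 6.9e-04), a call lost with span class medians removed (-0.29, adjusted p = 0.061). RAY1 fell by 0.65 (adjusted p = 0.0234), which was lost with the span trend removed (-0.39, adjusted p = 0.162) and without H3.3 replicate 1 (0.0607), H3.3 replicate 2 (0.114) or H3.3S28A replicate 1 (0.0845). AT1G33430 fell from 0.607 and 1.04 CPM to 0.207 and 0.236 CPM (-1.84, adjusted p = 0.0445), and leaving out any 1 library ended that call (adjusted p between 0.0651 and 0.275).

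All 5 genes of GPI anchor synthesis were tested. In the H3.1 pair the count called was 0 by edgeR, 0 by DESeq2 and 0 at an unadjusted p under 0.05. Over all genes tested in that pair, edgeR called 13.5%. In the H3.3 pair 2 fell, beside 29.7% of all genes tested, while with the span trend removed 2 were called higher and 0 lower. SETH2, a catalytic subunit of the first step of anchor synthesis, fell from 14.002 and 14.2 CPM to 9.93 and 8.81 CPM (log2 fold change -0.55, edgeR adjusted p = 0.0079), a call lost with the span trend removed (-0.30, adjusted p = 0.103) and without H3.3 replicate 2 (0.0502). AT3G27325 fell from 20.0 and 20.3 CPM to 13.96 and 10.9 CPM (-0.65, adjusted p = 0.0023) and was higher with the span trend removed (0.56, adjusted p = 0.0039). Over all 5 related lists, 10 of 55 tested genes were called in the H3.1 pair, 6 higher and 4 lower, and 29 of 58 in the H3.3 pair, 20 higher and 9 lower, beside 13.5% and 58.4% of all genes tested.

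**Figure D4:**
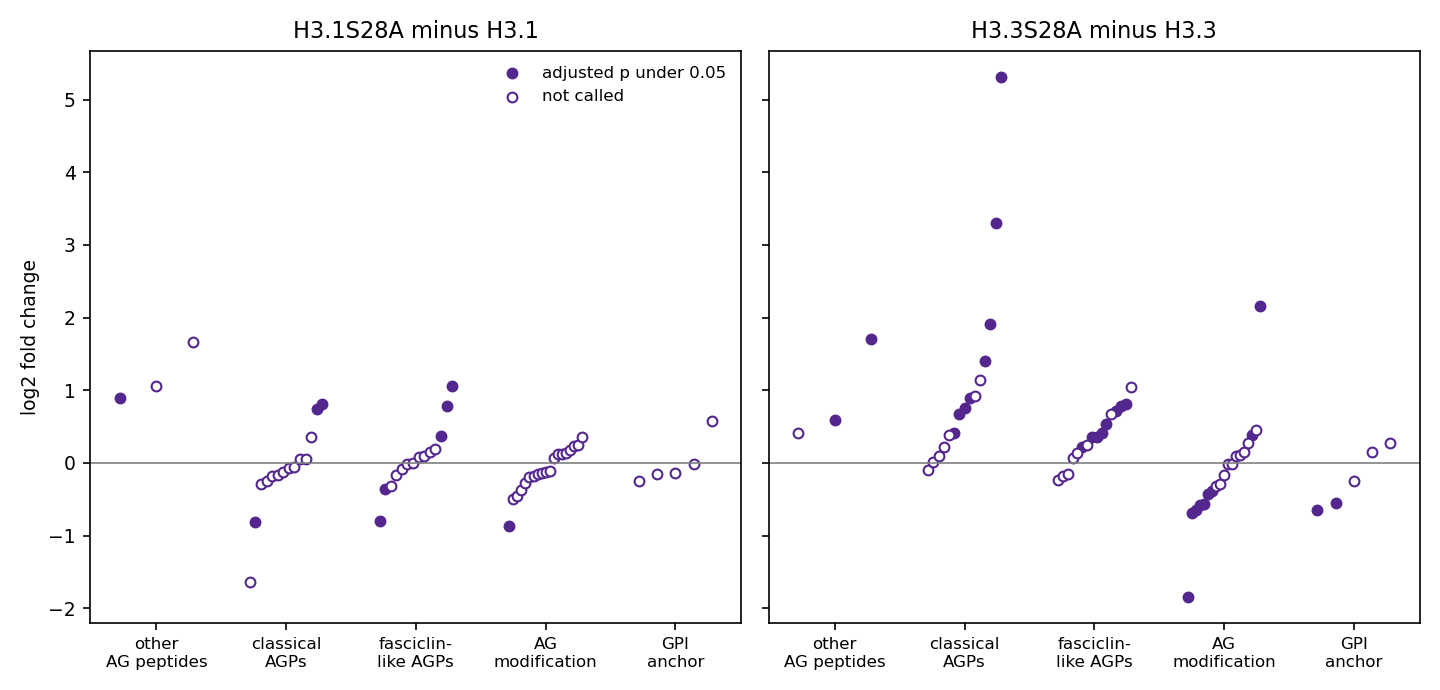
Log2 fold change of tested genes of 5 related lists in the H3.1 pair (left) and the H3.3 pair (right), ordered by size within each list; filled points passed an adjusted p of 0.05 and open points did not. At right 20 genes lie above 0 and 9 below among the filled points, with AGP5 highest at 5.31.

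Floral markers differed between the genotypes, and also between the H3.1S28A libraries, whose floral sums were 19.3 and 77.9 CPM. In H3.3S28A 8 of 8 floral organ identity genes rose, beside 28.8% of all genes tested. In H3.1S28A 4 of 6 tested rose, beside 8.23% of all genes tested. Summed root and root hair markers, 13 genes, were at 129 to 138 CPM in H3.1, 87.6 to 129 CPM in H3.1S28A, 191 to 255 CPM in H3.3 and 113 to 116 CPM in H3.3S28A. PYK10 alone supplied most of this root sum, ranging from 49.9 CPM (H3.1S28A replicate 1) to 208 CPM (H3.3 replicate 1). SHR and SCR added 8.34 to 29.3 CPM each, and no other gene of that list exceeded 2.12 CPM. The root sum therefore mainly tracked PYK10. The 8 anther and pollen markers summed to 0.932 to 2.75 CPM in each library. The part of other cell types in the levels of the arabinogalactan peptide genes was not tested.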

How the data were processed

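The authors deposited raw counts per gene in 2 tables, one per histone pair, and counts were used as deposited. The submitters' processing notes name DESeq2, Subread and HISAT2 and the build TAIR10; their versions, the annotation, the strand setting and the handling of reads with several matches were not given in the sources used here. Both columns of H3.1 are certain in genotype, and their replicate numbers were read from the column names. The columns of H3.1S28A are marked new, a word left unexplained. The 30 chromatin libraries were not analysed here.

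For each pair its own table was fitted with edgeR 4.0.16 (R 4.3.3; TMM scaling, filterByExpr, glmQLFit, glmQLFTest). Adjusted p is that of Benjamini and Hochberg over all genes tested, with a threshold of 0.05. SE was obtained by dividing the size of the log2 fold change by the square root of F. CPM carry TMM factors over all 8 libraries. Ratios of genes with few counts carry 95% exact intervals in the H3.3 pair. The fits were tested on simulated counts that held 200 changed genes and no relation of fold change to gene span. That test cannot show how well the span corrections remove such a relation. Alternatives were DESeq2 1.42.0, RLE scaling (edgeR, limma 3.58.1), no low-count filter, organelle genes left out, 1 fit of all 8 libraries, a replicate block, each library left out, and 2 corrections for gene span. Gene names and spans came from a RefSeq table of TAIR10.1 that covers 97.5% of the genes; chromosomes and overlaps of genes were also read from it, and no coordinates are printed.

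The gene set, the lists of related and marker genes, written from general knowledge, and the tests were chosen with earlier results of these data known. All 8 genes are named, and up to 4 called genes with the largest fold change per related list and pair. Likeness names the 3 genes with the highest r. AGP1 in H3.3S28A, AGP40 and AT2G46320 were chosen after their values were seen.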

Additional observations from a re-analysis of the deposited data

Results flagged for a closer look

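Some genes lay on opposite sides of 0 in the H3.1 and H3.3 pairs. The values below are the log2 fold change in the H3.1 pair minus that in the H3.3 pair. For AGP20 the difference was -0.79 (-0.15 in the H3.1 pair and 0.63 in the H3.3 pair), with both mutant libraries below both controls in one pair and above them in the other. That difference was not tested, because the H3.1 pair served in choosing the set, and with the span trend removed AGP20 was at -0.07 in the H3.3 pair.

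For related genes, picked for opposite signs in these same data, the difference was tested as an interaction on all 8 libraries with edgeR. Such a choice favours small adjusted p-values, so they only describe these genes. The interaction fit held no correction for gene span. AGP5 differed by -6.95 (-6.92 in the 8-library fit, interaction adjusted p = 2.7e-05) and AGP1 by -1.22 (-1.19, adjusted p = 3.5e-05). FUT4 differed by -2.65 (-2.62, adjusted p = 0.0017), AT1G27120 by 0.94 (0.96, adjusted p = 7.9e-04) and FLA15 by -0.70 (-0.67, adjusted p = 0.0123). In the H3.1 pair AGP5 (edgeR adjusted p = 0.0953), FUT4 (0.515), AT1G27120 (0.195) and FLA15 (0.465) were not called. AGP1 alone of the genes tested for interaction was called in both pairs, lower in H3.1S28A (-0.81, adjusted p = 3.9e-04) and higher in H3.3S28A (0.41, adjusted p = 0.0053). With the span trend removed AGP1 was lower in H3.3S28A too (-0.32, adjusted p = 0.0297), as it was with class medians removed (-0.29, adjusted p = 0.0479).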

How the results depend on the processing

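In the H3.3 pair, 6 arabinogalactan peptide genes were called by edgeR and 2 with the span trend removed or with span class medians removed; leaving out 1 library gave 4 to 6. With the span trend removed, the log2 fold change turned for AGP12 (-0.14), AGP16 (-0.24), AGP20 (-0.068), AGP41 (-0.035), FLA11 (-0.035) and AT3G27325 (0.56); with class medians removed, for AGP12 (-0.039), AGP16 (-0.092), AGP20 (-0.069) and AT3G27325 (0.43). These alternatives remove a common relation of fold change to span; the cause of that relation was not tested. The class medians were added after seeing the data. Leaving out 1 library, genes called in the H3.1 pair (2560) ran from 1152 without H3.1 replicate 2 and 1324 without H3.1 replicate 1 to 3480, and in the H3.3 pair (11529) from 8875 to 11234. Related genes called ran from 6 to 11 in the H3.1 pair (10; the 6 without H3.1 replicate 2) and from 19 to 29 in the H3.3 pair (29; the 19 without H3.3 replicate 2). DESeq2 called 5 of the 6 genes, without AGP14 (adjusted p = 0.106), and called 8 related genes in the H3.1 pair and 20 in the H3.3 pair; among the named genes it did not call AGP41 in the H3.1 pair (0.0865) or AGP3 (0.0517), FLA3 (0.109), RAY1 (0.0868) and AT1G33430 (0.151) in the H3.3 pair. Genes of arabinogalactan modification called in the H3.3 pair went from 9 to 3. Where 1 library of a genotype is left out, the other is assumed to vary like the compared genotype.

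The replicate block, which pairs libraries by number, gave 5 of the 6 genes called, without AGP14 (adjusted p = 0.0501), and 2836 and 11472 genes in all. Same-numbered libraries did not deviate together (r = -0.02 and 0.02 across genes), and the labels share only a number. AGP14 rests on 15 to 50 counts per library, and AGP13 and AGP22 on at most 9.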
